A study of Mus musculus with 24 samples.

Results

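Alveolar macrophages of newborn mice on postnatal day 1 (D1) were compared with those of mice on day 49 (D49), both without lipopolysaccharide (LPS). The comparison uses 5 of the 24 bulk RNA-seq libraries of the study, 2 labelled D1 Ctrl and 3 labelled D49 Ctrl, chosen by those labels alone. In every group macrophages were obtained by lung lavage and pooled from 3 to 6 mice, per the series design, then kept in culture for 4 h. Control wells held LPS-free medium, and the other libraries come from D1 and D49 cells kept with LPS at 400 ng/mL and from control and LPS-treated cells of D3, D7 and D21. The mouse strain and sex are not given in the labels. The medium is named differently in 2 places of the record (IMDM and DMEM with fetal bovine serum), and all groups share the seeding into untreated plates, so levels describe cultured rather than freshly lavaged cells. The labels do not say that libraries of a group come from separate pools or cultures, so the p-values may measure technical spread alone.

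Alveolar macrophages live in the airspaces, where they take up surfactant, dust and microbes. Around birth they arise from fetal monocytes, and the cytokine GM-CSF, acting through the nuclear receptor PPARγ, drives their final differentiation and lipid handling. TGF-β sustains the same programme. Fetal and newborn cells of many lineages also express oncofetal genes that are held down later by let-7 microRNAs.

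The libraries held 17890069 and 23334625 counts at D1 and 20074617, 16639457 and 17959227 at D49, within the range of 15770751 to 23334625 over all 24 libraries. Markers of the labelled cell type were present: mean FPKM (reads scaled by gene length and library total) of Itgax, the integrin CD11c, was 97.7 at D1 and 102 at D49, and that of Marco, a scavenger receptor, was 346 and 85.8. Summed markers of T and NK cells, B cells and mast cells and basophils stayed under 3 CPM (TMM-scaled counts, relative to library size) in each of the 5 libraries. The libraries differed in GC profile. A GC deviation was computed per library as the log2 gap between genes of high and of low transcript GC content relative to all libraries. It was 0.36 and 2.29 in D1 libraries 1 and 2, and -0.10, -2.07 and -3.13 in D49 libraries 1, 2 and 3. The GC profile thus moved with age in libraries 2 and 3, while the libraries numbered 1 had similar profiles.

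At D49, 5042 of 11774 tested genes differed from D1, 2469 higher (21.0%) and 2573 lower (21.9%), or 42.8% of tested genes (edgeR quasi-likelihood test, adjusted p under 0.05). Many of these calls followed GC content. The median log2 fold change ran from 1.18 in the tenth of genes with the lowest GC content to -1.88 in the tenth with the highest, and the genes called higher had a median GC content of 43.0% against 53.0% in those called lower. The gradient was smaller in 2 further fits. With GC deviation as a covariate the medians of these extremes were 0.32 and 0.29, and in the 14 libraries with a GC deviation within 1 of zero they were 0.37 and -0.07. Between the extremes the median fell to -0.29 in decile 8 by GC content in the 14 libraries, and to -0.09 with the covariate. The fit of 14 libraries keeps only library 1 of D1 and of D49 and takes the spread from the other groups, so the lone libraries are assumed to vary like them. It called 1482 genes (12.6%), with 7.53% higher and 5.06% lower, and the fit with the covariate called 1226 (10.4%).

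A stricter count was therefore used below. It holds 816 genes, 6.93% of those tested, that were called in the same direction in all 3 fits: 433 rises (3.68%) and 383 falls (3.25%). For 808 of the 816 the D1 and D49 libraries did not overlap in CPM, but this also held for 58.2% of all tested genes. The ratio of D49 library 1 to D1 library 1 had the sign of the call in all 816, which in part repeats the fit of 14 libraries, and in 4907 of the 5042 genes called in the 24 libraries (97.3%). The risen genes still had a lower median GC content (45.1%) than the fallen ones (49.3%), with 48.4% over all tested genes. Among the 816, 214 rose and 219 fell by over 4-fold. The 24-library count rests heavily on D1 library 2, without which it was 674, and it was 2642 without D49 library 3. A fit of the 5 D1 and D49 control libraries alone called 116 genes. Of 126 genes given here that were called in all 3 fits, 84 lost their call in it, and all 126 kept their direction. Below, each log2 fold change is D49 minus D1 from the 24 libraries with its standard error, a second value in the same parentheses is that of the 14 libraries, and "rose" and "fell" are kept for genes called in all 3 fits. Counts of rises and falls in a gene list stand beside 3.68% and 3.25% of all tested genes. Counts called in the 24 libraries stand beside 21.0% higher and 21.9% lower. All lists were chosen with earlier results of these data known. A lack of overlap between the ages, given for genes picked by their call, adds little, as 58.2% of all tested genes share it.

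**Figure D1:**
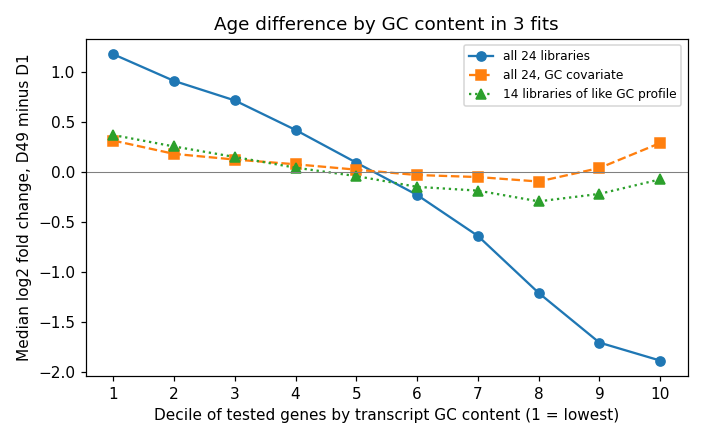
Median log2 fold change (D49 minus D1) of the tested genes in each decile of transcript GC content, with 1 line for each of the 3 fits. In the 24 libraries the median falls from 1.18 to -1.88 across the deciles, while both ends of the other lines lie between -0.07 and 0.37. Between its ends the line of the 14 libraries falls to -0.29 in decile 8.

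Many genes that mark mature alveolar macrophages were higher at D49. Of 28 tested identity genes 15 rose and none fell (medians 1.40 in the 24 libraries and 1.26 in the 14), beside the 3.68% and 3.25% of all tested genes given above. In the 24 libraries 16 were called higher and 2 lower. The list was chosen with earlier results of these data known, so its excess is no independent test. The 15 were Chil3, Fabp1, Flt1, Siglecf, Cd2, Epcam, Ear1, Mrc1, Atp6v0d2, Lpl, Slc39a2, Krt79, Ctsk, Ear2 and Pparg, of which Epcam, an adhesion molecule of epithelia, is also on the airway epithelium list. Chil3, which encodes the chitinase-like lectin Ym1, measured 385 and 271 CPM at D1 and 20898, 35664 and 20032 CPM at D49 (log2 fold change 6.28 ± 0.38, adjusted p = 6.5e-09; 5.71 in the 14 libraries). Every D49 library lay far above both D1 libraries, and Chil3 was the most abundant transcript of D49 library 2 by count. Siglecf, the sialic acid-binding receptor used to sort these cells, measured 23.5 and 19.8 CPM at D1 and 189, 189 and 259 CPM at D49 (log2 fold change 3.29 ± 0.30, adjusted p = 1e-06; 2.96 in the 14 libraries). Fabp1, a fatty acid-binding protein, measured 0.941 and 2.71 CPM at D1 and 62.3, 31.5 and 19.2 CPM at D49 (log2 fold change 4.35 ± 0.68, adjusted p = 0.00023; 5.99 in the 14 libraries). Its D49 libraries were spread more than 3-fold among themselves, yet the lowest was above both D1 libraries. Flt1, a receptor for vascular endothelial growth factor, measured 8.09 and 9.61 CPM at D1 and 172, 214 and 114 CPM at D49 (log2 fold change 4.23 ± 0.29, adjusted p = 3e-08; 4.36 in the 14 libraries). Without D1 library 2, the log2 fold change of Fabp1 moved to 5.31. Fabp1 lost its call in the 5 libraries alone (adjusted p = 0.053).

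Regulators of that state were also among the rises. Pparg measured 50.5 and 45.0 CPM at D1 and 100.3, 149.6 and 71.5 CPM at D49 (log2 fold change 1.17 ± 0.25, adjusted p = 0.0025; 0.94 in the 14 libraries). Of 31 tested regulators, Klf9, Mitf, Egr2, Pparg and Nfe2l2 rose and Maf fell (medians 0.39 in the 24 libraries and 0.53 in the 14). Egr2, a zinc-finger factor, measured 48.2 and 40.7 CPM at D1 and 123, 122 and 174 CPM at D49 (log2 fold change 1.65 ± 0.25, adjusted p = 0.0002; 1.30 in the 14 libraries). Klf9, a Krüppel-like factor that responds to glucocorticoids, had a log2 fold change of 2.71 ± 0.42 (2.17 in the 14 libraries), and Mitf, a factor of lysosomal genes, of 1.87 ± 0.35 (1.22). Maf, which marks interstitial rather than alveolar macrophages, measured 7.90 and 5.04 CPM at D1 and 0.731, 1.04 and 2.49 CPM at D49 (log2 fold change -2.20 ± 0.50, adjusted p = 0.0045; -3.48 in the 14 libraries). Both D1 libraries were above all 3 D49 libraries. Among 16 growth factor and receptor genes, Tgfb2 (2.25 ± 0.37; 1.88) and Igf1 (2.24 ± 0.36; 1.56), both ligands, rose, and Igf2r, the receptor that takes up insulin-like growth factor 2 and mannose 6-phosphate cargo, fell. Igf2r measured 58.2 and 66.2 CPM at D1 and 2.45, 1.63 and 1.06 CPM at D49 (log2 fold change -5.16 ± 0.42, adjusted p = 3.2e-07; -4.62 in the 14 libraries), with no overlap between the ages. With a smooth GC offset Igf1 read 0.75 (adjusted p = 0.041). Leaving D1 library 2 out, the call of Pparg (1.09, adjusted p = 0.063) ended. Without D49 library 3, the log2 fold change of Maf moved to -2.85. Pparg, Egr2, Klf9, Mitf, Maf, Tgfb2 and Igf1 lost their calls in the 5 libraries alone (adjusted p = 0.053 to 0.13).

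**Figure D2:**
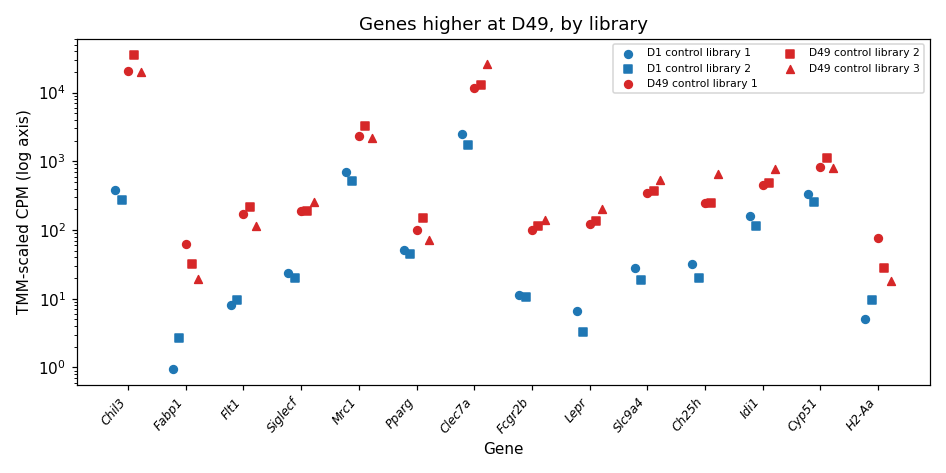
TMM-scaled CPM (log axis) of 14 genes that rose, in each D1 (blue) and D49 (red) control library, with 1 marker per library. For each of these genes every red marker lies above both blue markers, and the gap is widest for Chil3 (log2 fold change 6.28). The ages did not overlap in 58.2% of all tested genes.

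The 12 largest rises were taken where the D49 mean was 5 FPKM or more, outside marker lists of other cells and without Gm and Rik names. They held, beside Chil3, Flt1 and Fabp1, genes of signalling, transport and lipids. Lepr, the leptin receptor, measured 6.58 and 3.30 CPM at D1 and 122, 133 and 201 CPM at D49 (log2 fold change 4.95 ± 0.46, adjusted p = 1.2e-06; 4.16 in the 14 libraries). Slc9a4, a sodium-proton exchanger, measured 27.8 and 18.8 CPM at D1 and 347, 368 and 539 CPM at D49 (log2 fold change 4.16 ± 0.36, adjusted p = 5.4e-07; 3.59 in the 14 libraries). Ch25h, which makes 25-hydroxycholesterol, measured 31.7 and 20.2 CPM at D1 and 250.2, 245 and 642 CPM at D49 (log2 fold change 3.87 ± 0.41, adjusted p = 4.8e-06; 2.93 in the 14 libraries). In each of these genes the D49 libraries 1 and 2 lay close together and library 3 was highest. Frk, a Src-related kinase, had a log2 fold change of 4.46 ± 0.41, Lipf, gastric lipase, of 4.89 ± 0.49, Zfp125, a zinc-finger gene, of 3.52 ± 0.39, and Stap1, a signalling adaptor, of 3.51 ± 0.49. In the 14 libraries these were 3.58, 3.87, 2.80 and 2.72. Cdkn2b, an inhibitor of cyclin-dependent kinases that TGF-β induces in other cells, measured 1.08 and 0.465 CPM at D1 and 9.29, 14.1 and 10.0 CPM at D49 (log2 fold change 3.85 ± 0.50, adjusted p = 3.8e-05; 3.04 in the 14 libraries). Spag11b, a beta-defensin-like gene known from the epididymis, had no count in either D1 library and 19.7, 94.4 and 114 CPM at D49. With 3 counts per D1 library as the floor it was at least 592-fold higher. Without D1 library 1, the log2 fold change of Cdkn2b moved to 4.56. Leaving D49 library 3 out, log2 fold changes moved for Ch25h to 3.26 and Frk to 3.86.

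Receptors for uptake and receptors of families that hold inhibitory members moved in both directions. Of 32 phagocytic and scavenger receptor genes 4 rose and 2 fell, and of 29 Siglec, inhibitory and related receptor genes 3 rose and 3 fell. Clec7a, the β-glucan receptor dectin-1, measured 2525 and 1708 CPM at D1 and 11712, 12720.0 and 26261 CPM at D49 (log2 fold change 3.00 ± 0.39, adjusted p = 3.8e-05; 2.16 in the 14 libraries). Fcgr2b, the inhibitory IgG receptor, measured 11.4 and 10.5 CPM at D1 and 100.1, 114 and 141 CPM at D49 (log2 fold change 3.44 ± 0.27, adjusted p = 1.8e-07; 3.08 in the 14 libraries). Mrc1, the mannose receptor, measured 698 and 523 CPM at D1 and 2311, 3301 and 2186 CPM at D49 (log2 fold change 2.09 ± 0.29, adjusted p = 7.3e-05; 1.67 in the 14 libraries). None of the 3 overlapped between ages, as held for 58.2% of all tested genes. Cd200r4, of the CD200 receptor family, rose by 3.04 ± 0.34, and Havcr2, the checkpoint receptor TIM-3, by 2.47 ± 0.32 (2.49 and 2.02 in the 14 libraries). Cd300a, an inhibitory receptor for lipids of dying cells, measured 94.3 and 113 CPM at D1 and 18.6, 16.2 and 7.17 CPM at D49 (log2 fold change -2.89 ± 0.35, adjusted p = 2e-05; -2.39 in the 14 libraries), and Clec4a1, a C-type lectin, had a log2 fold change of -2.67 ± 0.41 (-3.63). Both fell without overlap. With D49 library 3 omitted, the log2 fold change of Clec4a1 moved to -3.29. Clec7a, Mrc1 and Clec4a1 lost their calls in the 5 libraries alone (adjusted p = 0.061 to 0.083).

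Cholesterol synthesis genes called in all 3 fits were higher at D49. Of 24 tested genes 10 rose and none fell (medians 0.61 in the 24 libraries and 0.86 in the 14): Idi1, Msmo1, Cyp51, Hmgcs1, Hsd17b7, Insig1, Stard4, Sc5d, Acat2 and Sqle. In the 24 libraries 12 were called higher and 3 lower, beside 21.0% and 21.9% of all tested genes. The list is not of enzymes alone, as Insig1 is a regulator of synthesis and Stard4 a sterol carrier. Cyp51, the lanosterol demethylase, measured 334 and 258 CPM at D1 and 820.3, 1116 and 808 CPM at D49 (log2 fold change 1.63 ± 0.24, adjusted p = 0.00014; 1.24 in the 14 libraries). Idi1, an isomerase of the isoprenoid steps, measured 159 and 116 CPM at D1 and 446, 484 and 761 CPM at D49 (log2 fold change 2.04 ± 0.34, adjusted p = 0.00041; 1.43 in the 14 libraries). Hmgcs1, the synthase that makes HMG-CoA, measured 409 and 332 CPM at D1 and 951, 697 and 1629 CPM at D49 (log2 fold change 1.56 ± 0.27, adjusted p = 0.00055; 1.16 in the 14 libraries). All 3 D49 libraries lay above both D1 libraries for these genes. Msmo1, a sterol oxidase, had a log2 fold change of 1.75 ± 0.31 (1.24). The call of Hmgcs1 (0.53, adjusted p = 0.16) ended with a smooth GC offset. Cyp51, Idi1, Hmgcs1 and Msmo1 lost their calls in the 5 libraries alone (adjusted p = 0.08 to 0.11). Among 13 fatty acid synthesis genes, the desaturases Scd1 (2.39 ± 0.45; 2.56) and Scd2 (1.07 ± 0.25; 0.80) rose and Fads1 fell (-1.12 ± 0.31; -1.33). Leaving D1 library 1 out, the call of Fads1 (-0.92, adjusted p = 0.067) ended. With D1 library 2 omitted, the calls of Scd2 (0.93, adjusted p = 0.11) and Fads1 (-1.30, adjusted p = 0.057) ended. Lacking D49 library 3, the call of Fads1 (-0.87, adjusted p = 0.056) ended. The call of Fads1 (-0.47, adjusted p = 0.32) ended with a smooth GC offset. The call of Fads1 (-1.21, adjusted p = 0.053) ended without an expression filter. The call of Fads1 (-1.19, adjusted p = 0.052) ended with the replicate block and GC covariate. Scd1, Scd2 and Fads1 lost their calls in the 5 libraries alone (adjusted p = 0.054 to 0.17). Lpl, the lipoprotein lipase, rose by 1.79 ± 0.33 (1.19), and Atp6v0d2, a lysosomal proton pump subunit, by 1.88 ± 0.33 (1.22). Of 41 lipid handling genes 4 rose: Fabp1, given above, Pdk4 (3.21 ± 0.48; 3.01), Lpl and Pparg. Another 3 fell, among them Angptl4, a lipase inhibitor (-3.45 ± 0.55; -2.60), and Dgat1, which makes triglyceride (-2.21 ± 0.40; -1.43). Lacking D1 library 2, the log2 fold change of Angptl4 moved to -2.85. The call of Dgat1 (-0.80, adjusted p = 0.059) ended with a smooth GC offset. Lpl, Atp6v0d2 and Dgat1 lost their calls in the 5 libraries alone (adjusted p = 0.098 to 0.11).

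Sterol genes are driven by SREBP factors, which bind TCACNCCAC-like elements often beside CCAAT boxes. The RefSeq promoter of Hmgcs1 is shown because it was the sole promoter among the cholesterol rises to hold TCACNCCAC, with capitals marking that element and CCAAT boxes (as ATTGG on the strand shown) in chr13:119690101-119690400 of GRCm38.p6, plus strand.
Hmgcs1: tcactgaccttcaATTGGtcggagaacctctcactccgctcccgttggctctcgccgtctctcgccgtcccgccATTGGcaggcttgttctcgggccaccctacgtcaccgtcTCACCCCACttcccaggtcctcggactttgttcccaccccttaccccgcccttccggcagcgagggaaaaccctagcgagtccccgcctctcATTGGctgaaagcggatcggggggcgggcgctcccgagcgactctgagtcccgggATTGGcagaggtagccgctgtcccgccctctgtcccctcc
Of the 10 risen cholesterol genes 8 had a promoter entry of 250 bases before to 50 after the start. TCACNCCAC occurred, on either strand, in 1 of the 8 against 1.24% of 32851 promoters, and CCAAT in 7 of the 8 against 37.4%. The motifs were chosen after the values were seen, and a match is not evidence of binding.

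Antigen presentation genes called in all 3 fits were higher at D49. Of 12 genes listed for MHC class II and costimulation 4 rose: H2-Aa, H2-Ab1, Cd80 and Cd86. The 12 had medians of 0.31 in the 24 libraries and 1.49 in the 14, and 1 was called lower in the 24 libraries. Of 15 class I genes 2 rose (medians -0.82 in the 24 libraries and 0.64 in the 14), and 4 were called higher and 2 lower in the 24 libraries. Over all tested genes 21.0% were called higher and 21.9% lower in the 24 libraries. H2-Aa, a class II alpha chain, measured 5.08 and 9.65 CPM at D1 and 76.6, 28.2 and 18.3 CPM at D49 (log2 fold change 2.48 ± 0.60, adjusted p = 0.0059; 3.86 in the 14 libraries). H2-Ab1, its beta partner, measured 1.93 and 2.99 CPM at D1 and 27.2, 7.57 and 4.90 CPM at D49 (log2 fold change 2.42 ± 0.76, adjusted p = 0.02; 3.76 in the 14 libraries). In both genes D49 library 1 was highest and libraries 2 and 3 were nearer to D1. Cd74, the invariant chain, measured 5.97 and 28.2 CPM at D1 and 70.0, 9.52 and 6.72 CPM at D49 (log2 fold change 0.75 ± 0.97, adjusted p = 0.54). It was not called in the 24 libraries, whereas the fit with the GC covariate gave 3.37 and the 14 libraries gave 3.50 (adjusted p = 0.0066). The costimulatory ligands Cd86 (1.83 ± 0.31; 1.35) and Cd80 (2.15 ± 0.36; 1.47) rose. For class I, B2m rose by 1.74 ± 0.29 (1.22) and H2-Q4, a nonclassical gene with close paralogs that could share reads, by 2.20 ± 0.30 (1.99). With D1 library 1 omitted, the call of H2-Ab1 (2.15, adjusted p = 0.096) ended. Dropping D1 library 2, the call of H2-Ab1 (2.78, adjusted p = 0.14) ended. Without D49 library 1, the call of H2-Ab1 (1.34, adjusted p = 0.092) ended, and the log2 fold change of H2-Aa moved to 1.66. The call of B2m (0.59, adjusted p = 0.078) ended with a smooth GC offset. The call of H2-Ab1 (2.34, adjusted p = 0.062) ended with voom and sample weights. H2-Aa, H2-Ab1, Cd86, Cd80, B2m and H2-Q4 lost their calls in the 5 libraries alone (adjusted p = 0.052 to 0.12). The log2 fold change of Cd74 turned to -1.07 without D49 library 1.

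Inflammatory genes were lower at D49 in the absence of LPS. Of 30 tested genes 13 fell and 2 rose (medians -1.59 in the 24 libraries and -1.17 in the 14), beside 3.25% and 3.68% of all tested genes. Those that fell were Tnfsf9, Ccl4, Il1b, Il23a, Nos2, Cxcl10, Il12b, Ccl5, Nlrp3, Ccl9, Il6, Ptgs2 and Cxcl1. Il1b, the fever cytokine interleukin 1β, measured 1042 and 955 CPM at D1 and 118, 114 and 46.6 CPM at D49 (log2 fold change -3.42 ± 0.28, adjusted p = 3.1e-07; -3.19 in the 14 libraries). Tnfsf9, the ligand 4-1BBL, measured 5.36 and 7.17 CPM at D1 and 0.313, 0 and 0 CPM at D49 (log2 fold change -5.65 ± 0.76, adjusted p = 5.5e-05; -4.12 in the 14 libraries). Ccl4, a chemokine, measured 94.7 and 402 CPM at D1 and 15.0, 6.20 and 10.2 CPM at D49 (log2 fold change -4.56 ± 0.82, adjusted p = 0.00077; -2.71 in the 14 libraries). In Ccl4 the D1 libraries differed over 4-fold between themselves, though both were above all D49 libraries. Several further members, all but Nos2 named after their values were seen, fell by smaller amounts. Il6 measured 72.0 and 49.2 CPM at D1 and 14.0, 21.3 and 21.2 CPM at D49 (log2 fold change -1.69 ± 0.31, adjusted p = 0.00096; -2.41 in the 14 libraries). Cxcl10, an interferon-induced chemokine, measured 124 and 175 CPM at D1 and 23.3, 13.3 and 39.6 CPM at D49 (log2 fold change -2.56 ± 0.37, adjusted p = 0.00013; -2.47 in the 14 libraries). Il12b, a subunit of interleukins 12 and 23, had a log2 fold change of -2.43 ± 0.41 (-2.47), Ccl5 of -2.08 ± 0.46 (-1.44), and Nos2, inducible nitric oxide synthase, of -3.01 ± 0.59 (-3.17). Nos2 was near the floor, with 30 and 46 counts at D1 and 3, 1 and 5 at D49. Its mean FPKM was 0.411 at D1 and 0.0366 at D49. Ccl22, a chemokine for regulatory T cells, went the other way at 23.3 and 27.6 CPM at D1 and 228, 195 and 321 CPM at D49 (log2 fold change 3.28 ± 0.34, adjusted p = 3.7e-06; 3.24 in the 14 libraries), and Cxcl3 also rose. Lacking D1 library 1, the log2 fold change of Ccl4 moved to -5.26. Without D1 library 2, the log2 fold change of Ccl4 moved to -3.17. Leaving out D49 library 1 left Tnfsf9 with no count at that age, so no fold is given for that fit. Dropping D49 library 3, the log2 fold change of Nos2 moved to -3.73, with 3 and 1 counts left at D49. Tnfsf9, Il6, Cxcl10, Il12b, Ccl5 and Nos2 lost their calls in the 5 libraries alone (adjusted p = 0.063 to 0.12).

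Tnf, the central inflammatory cytokine, was not among the falls called in all 3 fits. It measured 1032 and 2029 CPM at D1 and 558, 134 and 41.0 CPM at D49 (log2 fold change -2.65 ± 0.71, adjusted p = 0.0096), and the 14 libraries gave -0.94 with an adjusted p of 0.26. The single D49 library of matched GC profile was at 558 CPM, against 1032 CPM in D1 library 1. Il10, an anti-inflammatory cytokine, was low at 2.54 and 1.28 CPM at D1 and 0.418, 1.11 and 0.830 CPM at D49 and was not called (log2 fold change -1.28 ± 0.59, adjusted p = 0.083). Cd14, the LPS co-receptor, measured 144 and 231 CPM at D1 and 77.4, 41.1 and 41.0 CPM at D49 (log2 fold change -1.81 ± 0.43, adjusted p = 0.0055), and it was not called with the GC covariate (-0.52, adjusted p = 0.25). Tlr4, the LPS receptor, measured 66.1 and 49.4 CPM at D1 and 72.3, 73.8 and 135 CPM at D49 (log2 fold change 0.70 ± 0.34, adjusted p = 0.098), and it read -0.22 with the covariate and 0.07 in the 14 libraries. With a smooth GC offset it was called lower (-0.67, adjusted p = 0.022). Among 24 Toll-like receptor and adaptor genes, Tlr2 (0.75 ± 0.18; 0.59) and Ticam2 (1.47 ± 0.30; 0.92) rose, while Tlr1 (-1.70 ± 0.35; -2.53) and Nod2 (-1.60 ± 0.30; -1.23) fell. Rises and falls made up 3.68% and 3.25% of all tested genes. Leaving D1 library 2 out, the calls of Tnf (-2.08, adjusted p = 0.14), Cd14 (-1.43, adjusted p = 0.11), Tlr2 (0.66, adjusted p = 0.13) and Ticam2 (1.24, adjusted p = 0.072) ended. Leaving D49 library 1 out, the log2 fold change of Tnf moved to -4.13. The call of Nod2 (-0.38, adjusted p = 0.37) ended with a smooth GC offset. The call of Tlr2 (0.77, adjusted p = 0.051) ended in the 13 control libraries alone. The call of Tlr2 (0.65, adjusted p = 0.17) ended without an expression filter. Tlr2, Ticam2, Tlr1 and Nod2 lost their calls in the 5 libraries alone (adjusted p = 0.1 to 0.2).

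**Figure D3:**
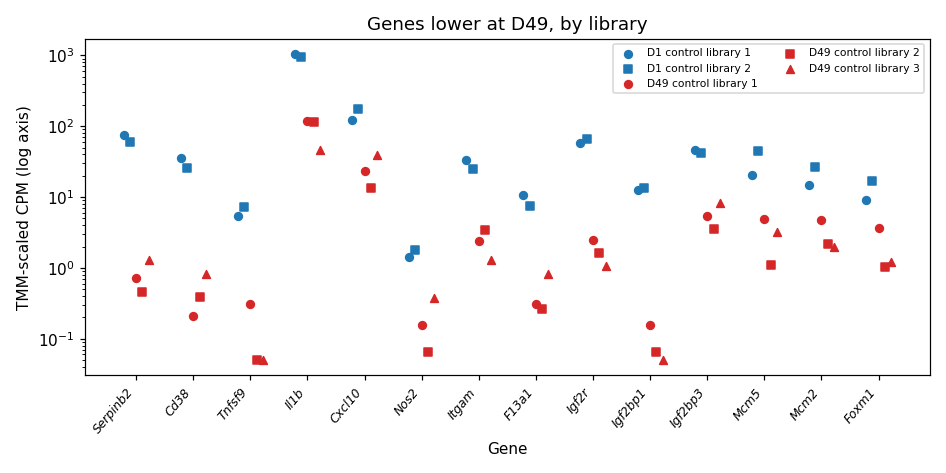
TMM-scaled CPM (log axis) of 14 genes that fell, in each D1 (blue) and D49 (red) control library, with values of 0 drawn at 0.05. Both blue markers lie above every red marker for each gene, and in Mcm5, Mcm2 and Foxm1 D1 library 2 is the higher of the 2. A lack of overlap held for 58.2% of all tested genes.

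The 12 largest falls, taken likewise where the D1 mean was 5 FPKM or more, held, beside Tnfsf9, Ccl4 and Igf2r, genes of enzymes, receptors and kinases. Serpinb2, an inhibitor of plasminogen activators, measured 75.0 and 59.7 CPM at D1 and 0.731, 0.457 and 1.28 CPM at D49 (log2 fold change -6.36 ± 0.42, adjusted p = 1.7e-08; -6.72 in the 14 libraries). Cd38, an ectoenzyme that consumes NAD, measured 35.7 and 25.5 CPM at D1 and 0.209, 0.391 and 0.830 CPM at D49 (log2 fold change -6.04 ± 0.51, adjusted p = 3.6e-07; -7.43 in the 14 libraries). Acpp, an acid phosphatase that can generate adenosine, measured 80.1 and 63.1 CPM at D1 and 1.25, 0.391 and 2.64 CPM at D49 (log2 fold change -5.66 ± 0.46, adjusted p = 2.8e-07; -6.04 in the 14 libraries). None of the 3 exceeded 2.64 CPM in a D49 library. Tarm1, an activating receptor of myeloid cells, had a log2 fold change of -4.77 ± 0.45, Ikbke, a kinase of interferon signalling, of -4.53 ± 0.48, and S100a6, a calcium-binding protein, of -4.35 ± 0.57. In the 14 libraries these were -3.81, -3.41 and -3.68. Ripk3, a kinase of necroptosis, measured 15.6 and 46.2 CPM at D1 and 2.82, 0.718 and 0.453 CPM at D49 (log2 fold change -4.50 ± 0.84, adjusted p = 0.0011; -2.52 in the 14 libraries). Fam20c, a secretory pathway kinase, and Creld2, a gene of endoplasmic reticulum stress, had log2 fold changes of -4.35 ± 0.87 and -4.25 ± 0.80 (-2.09 and -2.25). In Ripk3, Fam20c and Creld2, D1 library 2 was roughly 3-fold above D1 library 1, and the difference in the 14 libraries was smaller. Nampt, which makes an NAD precursor, measured 1648 and 1101 CPM at D1 and 5622, 6889 and 11223 CPM at D49 (log2 fold change 2.52 ± 0.37, adjusted p = 0.00014; 1.72 in the 14 libraries). Of 15 purine and NAD genes 4 rose and 2 fell; P2ry14 rose (1.53 ± 0.27; 1.46) and the adenosine receptor Adora2b fell (-1.61 ± 0.31; -1.73). Dropping D1 library 1, the log2 fold change of Fam20c moved to -4.99. With D1 library 2 omitted, log2 fold changes moved for Ripk3 to -3.51, Fam20c to -3.16 and Creld2 to -3.28. With D49 library 1 omitted, log2 fold changes moved for Ikbke to -5.13, Ripk3 to -5.70, Fam20c to -5.69 and Creld2 to -5.49. Without D49 library 3, log2 fold changes moved for Cd38 to -6.67 and Acpp to -6.41. The call of P2ry14 (0.30, adjusted p = 0.6) ended with a smooth GC offset. Ripk3, Fam20c, Creld2, Nampt, P2ry14 and Adora2b lost their calls in the 5 libraries alone (adjusted p = 0.057 to 0.11).

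Some negative regulators and stress genes also fell. Of 42 negative regulator and tolerance genes 8 fell and 2 rose (medians -1.22 in the 24 libraries and -0.37 in the 14), and of 25 stress and immediate early genes 8 fell and 1 rose (medians -1.03 in the 24 libraries and -0.63 in the 14). Socs3, an inhibitor of cytokine receptors, measured 27.2 and 73.3 CPM at D1 and 4.75, 2.48 and 1.43 CPM at D49 (log2 fold change -4.10 ± 0.63, adjusted p = 0.00019; -2.57 in the 14 libraries). Arg1, arginase 1, measured 9.08 and 7.56 CPM at D1 and 0.470, 0.913 and 0.453 CPM at D49 (log2 fold change -3.75 ± 0.48, adjusted p = 3.7e-05; -4.31 in the 14 libraries). Ier3, an immediate early gene, measured 28.5 and 45.7 CPM at D1 and 3.50, 2.15 and 1.06 CPM at D49 (log2 fold change -4.03 ± 0.54, adjusted p = 4.7e-05; -3.08 in the 14 libraries). No D49 library reached either D1 library in these 3 genes. The chaperones Hspa8 (-1.97 ± 0.20; -1.82), Hspa1a (-2.04 ± 0.33; -2.39) and Dnajb1 (-1.94 ± 0.33; -1.35) fell. Of 40 interferon response genes 7 fell and none rose (medians -0.72 in the 24 libraries and -0.64 in the 14), among them Oas2, a sensor of double-stranded RNA (-3.05 ± 0.52; -2.42), Usp18, which removes ISG15 (-1.84 ± 0.31; -1.67), and Ifi211 (-1.53 ± 0.27; -1.82) and Ifi209 (-1.43 ± 0.38; -2.25) of a family with close paralogs that could share reads. Of the 40 interferon response genes, 17 were called lower and 4 higher in the 24 libraries. Without D1 library 1, the call of Ifi209 (-1.10, adjusted p = 0.065) ended. Lacking D1 library 2, the log2 fold change of Socs3 moved to -3.21. The call of Hspa1a (-0.36, adjusted p = 0.75) ended with a smooth GC offset. Hspa8, Hspa1a, Dnajb1, Oas2, Usp18, Ifi211 and Ifi209 lost their calls in the 5 libraries alone (adjusted p = 0.053 to 0.13).

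Several genes of fetal monocytes and interstitial macrophages were lower at D49. Of 28 listed genes 15 were tested, 6 fell and none rose (medians -1.37 in the 24 libraries and -1.58 in the 14): F13a1, Itgam, Fn1, Maf, Vcan and Ms4a4c. Of the 15, 7 were called lower and 1 higher in the 24 libraries. Itgam, the integrin CD11b, measured 33.4 and 24.8 CPM at D1 and 2.40, 3.39 and 1.28 CPM at D49 (log2 fold change -3.62 ± 0.34, adjusted p = 1.2e-06; -3.85 in the 14 libraries). F13a1, a transglutaminase subunit of clotting factor XIII, measured 10.8 and 7.37 CPM at D1 and 0.313, 0.261 and 0.830 CPM at D49 (log2 fold change -4.29 ± 0.76, adjusted p = 0.00073; -5.13 in the 14 libraries). Fn1, fibronectin, measured 836 and 1894 CPM at D1 and 290.2, 84.1 and 37.1 CPM at D49 (log2 fold change -3.31 ± 0.63, adjusted p = 0.0012; -1.58 in the 14 libraries). Both D1 libraries exceeded all D49 libraries in each, and Fn1 in D49 library 1 was over 3-fold above libraries 2 and 3. Ccr2, the receptor that draws monocytes to tissue, did not reach the FPKM filter and was not tested, at 3.57 and 3.33 CPM at D1 and 1.93, 3.33 and 2.41 CPM at D49. In bulk samples fewer cells of a type and less RNA per cell cannot be told apart. Of 25 matrix genes 7 rose and 4 fell, the latter including Thbs1, a matrix glycoprotein (-3.81 ± 0.43; -5.17). Of 13 complement genes 3 fell, among them the receptor C3ar1 (-2.39 ± 0.30; -2.93). Of 17 iron genes 3 fell, Lcn2, a siderophore binder (-3.28 ± 0.79; -1.83), Slc11a1, a phagosomal metal transporter (-2.92 ± 0.47; -2.02), and Steap3, a ferric reductase (-2.43 ± 0.51; -1.85). Hamp, hepcidin, was one of 2 that rose, at 1.27 and 3.88 CPM at D1 and 15.0, 7.76 and 3.55 CPM at D49 (log2 fold change 1.77 ± 0.55, adjusted p = 0.018; 3.51 in the 14 libraries), where D49 library 3 lay below D1 library 2. Leaving D1 library 1 out, the call of Hamp (1.19, adjusted p = 0.14) ended. Dropping D1 library 2, the call of Lcn2 (-3.14, adjusted p = 0.052) ended, and log2 fold changes moved for Fn1 to -2.61 and Hamp to 2.79. Lacking D49 library 1, the call of Hamp (1.13, adjusted p = 0.066) ended, and the log2 fold change of Fn1 moved to -4.49. Lcn2 then kept 1 and 0 counts at D49, so no fold is given for that fit. Leaving D49 library 3 out, the log2 fold change of F13a1 moved to -4.94. The call of Hamp (1.76, adjusted p = 0.054) ended in the 13 control libraries alone. Fn1, C3ar1, Lcn2, Slc11a1, Steap3 and Hamp lost their calls in the 5 libraries alone (adjusted p = 0.061 to 0.16).

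Oncofetal genes, active before birth and held down by let-7 microRNAs in many tissues, were tested for 9 of 29 listed members. Igf2bp1, Arid3b, Igf2bp3 and Arid3a fell and Igf2bp2 rose (medians -1.69 in the 24 libraries and -0.49 in the 14). Igf2bp1, an RNA-binding protein that binds insulin-like growth factor 2 mRNA, measured 12.7 and 13.3 CPM at D1 and 0.157, 0.0652 and 0 CPM at D49 (log2 fold change -7.20 ± 0.67, adjusted p = 1.1e-06; -6.33 in the 14 libraries). Its paralog Igf2bp3 measured 45.7 and 41.6 CPM at D1 and 5.48, 3.52 and 8.22 CPM at D49 (log2 fold change -2.93 ± 0.28, adjusted p = 1.3e-06; -3.11 in the 14 libraries). Arid3a, a DNA-binding factor of fetal haematopoiesis, measured 48.6 and 61.5 CPM at D1 and 11.2, 12.1 and 5.43 CPM at D49 (log2 fold change -2.52 ± 0.31, adjusted p = 2.1e-05; -2.17 in the 14 libraries). The ages did not overlap in these genes, and Arid3b fell as well (-3.05 ± 0.51; -2.11 in the 14 libraries). Lin28b, which blocks let-7 maturation, had 10 counts in each D1 library and 0, 1 and 0 at D49, and was not tested. Leaving out D49 library 1 left Igf2bp1 with 1 and 0 counts at D49, so no fold is given for that fit. Arid3a and Arid3b lost their calls in the 5 libraries alone (adjusted p = 0.058 to 0.092).

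Mature let-7a and 1 matching site from each of these 3′ UTRs are shown to let the pairing be read. Capitals mark the seed, bases 2 to 8 of the microRNA (RefSeq), and in the mRNA its complement CTACCTC (longest protein-coding transcript, GENCODE M21).
mmu-let-7a-5p: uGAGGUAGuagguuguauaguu
Igf2bp1: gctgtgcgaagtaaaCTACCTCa
Igf2bp3: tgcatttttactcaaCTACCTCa
Arid3a: aaggcaagtttctttCTACCTCa
Arid3b: tatttcaataaagctCTACCTCt
Igf2bp2: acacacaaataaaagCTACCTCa
The 3′ UTR of Igf2bp1 held 4 such sites, that of Arid3a 2 and the others 1 each, and 974 of 9697 tested genes with a 3′ UTR (10.0%) held at least 1. Igf2bp2, which rose, carries a site as well. The list was made of genes known as oncofetal or held down by let-7, so sites in its members were likely beforehand. The share of 10.0% is therefore no test, and sites in the other tested members are not given. The microRNA itself was not measured in these libraries.

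Genes of DNA replication and division were lower at D49. Of 48 tested proliferation genes 11 fell and 1 rose (medians -1.02 in the 24 libraries and -0.84 in the 14): Mcm5, Mcm7, Mcm2, Foxm1, Aurkb, Kif20a, Mcm6, Birc5, Tyms, Mcm4 and Mki67 fell. Mcm5, a subunit of the replicative helicase, measured 20.4 and 45.3 CPM at D1 and 4.86, 1.11 and 3.24 CPM at D49 (log2 fold change -3.41 ± 0.61, adjusted p = 0.00078; -2.12 in the 14 libraries). Mcm6, another subunit, measured 51.6 and 53.2 CPM at D1 and 15.8, 9.07 and 12.0 CPM at D49 (log2 fold change -2.09 ± 0.31, adjusted p = 0.00015; -1.76 in the 14 libraries), and was named after its values were seen. Foxm1, a factor of late cell cycle genes, measured 9.17 and 17.0 CPM at D1 and 3.66, 1.04 and 1.21 CPM at D49 (log2 fold change -2.71 ± 0.48, adjusted p = 0.00073; -1.38 in the 14 libraries). The ages did not overlap, and the drop was steepest for D49 library 2 in Mcm5, Mcm6 and Foxm1. Mki67, the proliferation antigen Ki-67, measured 454 and 335 CPM at D1 and 208, 263 and 195 CPM at D49 (log2 fold change -0.83 ± 0.29, adjusted p = 0.028; -1.18 in the 14 libraries). Mcm7 and Mcm2 had log2 fold changes of -3.08 ± 0.64 and -2.81 ± 0.52 (-1.63 and -1.72). Ccnd2, cyclin D2, also named after its values were seen, rose instead and was steady within each age at 138 and 119 CPM at D1 and 369, 363 and 380.1 CPM at D49 (log2 fold change 1.53 ± 0.18, adjusted p = 1.5e-05; 1.36 in the 14 libraries). Among 15 inhibitors, Cdkn2b and Btg1 (1.61 ± 0.28; 1.11) rose and Gadd45a fell (-1.30 ± 0.31; -1.79). With D1 library 1 omitted, the call of Mki67 (-0.59, adjusted p = 0.18) ended. Without D1 library 2, the calls of Mki67 (-1.03, adjusted p = 0.095) and Mcm7 (-2.47, adjusted p = 0.052) ended, and the log2 fold change of Mcm5 moved to -2.72. Without D49 library 1, log2 fold changes moved for Foxm1 to -3.53 and Mcm7 to -3.93. With D49 library 3 omitted, the call of Mki67 (-0.73, adjusted p = 0.13) ended. The call of Mki67 (-0.74, adjusted p = 0.052) ended with voom and sample weights. The call of Mki67 (-0.81, adjusted p = 0.1) ended in the 13 control libraries alone. Mcm5, Mcm6, Foxm1, Mki67, Mcm7, Mcm2, Ccnd2, Btg1 and Gadd45a lost their calls in the 5 libraries alone (adjusted p = 0.063 to 0.17).

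Replication genes are driven by E2F factors, which bind TTTGGCGC. The promoters of Mcm5 (chr8:75109259-75109558, plus strand) and Mcm6 (chr1:128359656-128359955, minus strand; both RefSeq, GRCm38.p6) are shown because these 2 hold that element, in capitals, as GCGCCAAA in Mcm5 and TTTGGCGC in Mcm6.
Mcm5: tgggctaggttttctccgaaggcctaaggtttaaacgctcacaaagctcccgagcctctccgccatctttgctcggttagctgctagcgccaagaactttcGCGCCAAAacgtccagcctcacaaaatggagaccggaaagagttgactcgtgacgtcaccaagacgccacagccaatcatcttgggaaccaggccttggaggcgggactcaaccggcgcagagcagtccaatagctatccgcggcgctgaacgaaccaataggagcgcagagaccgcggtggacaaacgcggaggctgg
Mcm6: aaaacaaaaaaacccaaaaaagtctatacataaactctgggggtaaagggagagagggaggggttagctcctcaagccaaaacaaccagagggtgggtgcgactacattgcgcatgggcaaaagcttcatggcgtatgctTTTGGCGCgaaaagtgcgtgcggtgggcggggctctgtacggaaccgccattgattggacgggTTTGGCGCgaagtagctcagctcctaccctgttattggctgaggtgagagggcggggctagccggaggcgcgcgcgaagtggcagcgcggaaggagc
Of the 11 falls 7 had a promoter entry. TTTGGCGC was found, on either strand, in 2 of the 7 against 0.514% of all promoters, CCAAT in 5 against 37.4%, and TTTGAA, part of a cell cycle element, in 2 against 17.9%. These motifs too were chosen after the values were seen.

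For other groups the 24 libraries and the matched libraries gave different pictures. Of 33 ribosomal protein genes 18 were called lower and 2 higher in the 24 libraries, but none was called in all 3 fits (medians -1.95 in the 24 libraries and 0.01 in the 14). The 24-library shares of all tested genes were 21.9% lower and 21.0% higher. Gapdh, a glycolytic enzyme often used as a reference gene, measured 32.2 and 392 CPM at D1 and 41.9, 7.70 and 10.6 CPM at D49 (log2 fold change -3.40 ± 1.19, adjusted p = 0.03). Its libraries numbered 1 were at 32.2 and 41.9 CPM, and the 14 libraries gave 0.33. Rplp0, a ribosomal gene named after its values were seen, read -3.14 ± 0.93 in the 24 libraries and 0.17 with the GC covariate. Of 33 respiratory chain genes 15 were called lower and 3 higher in the 24 libraries, and none in all 3 fits. Of 25 glycolysis genes 2 fell, Hk1 (-2.98 ± 0.55; -1.70) and Pgk1 (-2.09 ± 0.39; -1.35), and Epas1, a hypoxia-inducible factor, rose (1.20 ± 0.34; 1.14). Of 28 lysosomal genes, 6 were called higher and 11 lower, but Ctsk, cathepsin K, and Atp6v0d2 alone were called in all 3 fits. Ctsk measured 530.5 and 661 CPM at D1 and 3203, 1750.3 and 623 CPM at D49 (log2 fold change 1.64 ± 0.45, adjusted p = 0.011; 2.54 in the 14 libraries), and D49 library 3 lay within the D1 range. Lacking D1 library 1, the call of Ctsk (1.49, adjusted p = 0.057) ended, and log2 fold changes moved for Gapdh to -4.28 and Rplp0 to -3.90. Leaving D1 library 2 out, the calls of Gapdh (-0.68, adjusted p = 0.76), Rplp0 (-1.43, adjusted p = 0.37), Epas1 (1.10, adjusted p = 0.16) and Ctsk (1.81, adjusted p = 0.1) ended. Leaving D49 library 1 out, log2 fold changes moved for Gapdh to -4.53, Rplp0 to -4.03, Hk1 to -3.75 and Ctsk to 0.99. Without D49 library 2, the calls of Gapdh (-3.01, adjusted p = 0.095) and Rplp0 (-2.83, adjusted p = 0.054) ended. Lacking D49 library 3, the calls of Gapdh (-3.11, adjusted p = 0.092) and Rplp0 (-2.87, adjusted p = 0.054) ended. The call of Epas1 (1.09, adjusted p = 0.1) ended without an expression filter. Hk1, Pgk1, Epas1 and Ctsk lost their calls in the 5 libraries alone (adjusted p = 0.088 to 0.14).

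Several markers of the cell type likewise lacked a call in all 3 fits. Marco measured 317 and 865 CPM at D1 and 381, 108 and 44.6 CPM at D49 (log2 fold change -1.73 ± 0.74, adjusted p = 0.064), and the 14 libraries gave 0.21. Car4, a carbonic anhydrase of alveolar macrophages, measured 195 and 374 CPM at D1 and 156, 71.6 and 56.7 CPM at D49 (log2 fold change -1.59 ± 0.54, adjusted p = 0.026), but read 0.02 with the GC covariate. Both were highest in D1 library 2 and lowest in D49 libraries 2 and 3, as was the GC deviation. Csf2ra and Csf2rb, the GM-CSF receptor chains, read -1.31 ± 0.51 and -1.19 ± 0.33 in the 24 libraries and -0.09 and -0.53 in the 14. Itgax measured 364 and 458 CPM at D1 and 792, 589 and 235 CPM at D49 (log2 fold change 0.39 ± 0.32, adjusted p = 0.31), and was called higher with the covariate (1.01, adjusted p = 0.015) and in the 14 libraries (1.07, adjusted p = 0.0022). Fabp4, a fatty acid-binding protein, measured 147 and 139 CPM at D1 and 299, 196 and 195 CPM at D49 and was not called in any of the 3 fits (log2 fold change 0.69 ± 0.30, adjusted p = 0.073). Among oxidative burst and antioxidant genes, 25 in all, Gclc, a glutathione synthesis enzyme, rose (1.26 ± 0.25; 0.91), while Rac2, a subunit of the oxidase complex (-3.31 ± 0.66; -1.56), fell with Nos2. Of 17 surfactant catabolism genes 3 rose and none fell. The rises were Fabp1, Lpl and Pparg, already counted among the identity and lipid handling rises. In the 24 libraries 6 of the 17 were called higher and 4 lower. With D1 library 2 omitted, the calls of Car4 (-1.04, adjusted p = 0.31), Csf2ra (-0.47, adjusted p = 0.62), Csf2rb (-0.91, adjusted p = 0.18) and Gclc (1.09, adjusted p = 0.06) ended, and the log2 fold change of Rac2 moved to -2.57. With D49 library 1 omitted, the log2 fold change of Rac2 moved to -4.47. Leaving D49 library 2 out, the calls of Car4 (-1.42, adjusted p = 0.083) and Csf2ra (-1.26, adjusted p = 0.1) ended. Dropping D49 library 3, the calls of Car4 (-1.33, adjusted p = 0.081) and Csf2ra (-1.12, adjusted p = 0.12) ended. Gclc and Rac2 lost their calls in the 5 libraries alone (adjusted p = 0.086 to 0.12).

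The change from D1 to D49 was spread over the ages between, read from library 1 of each age. For the 433 rises the median gene had covered 24.2% of its log2 difference by D3, 45.9% by D7 and 82.0% by D21. For the 383 falls the medians were 18.3%, 45.3% and 85.9%. By D21, 376 of the rises and 335 of the falls had passed the midpoint. These shares rest on 1 library per age and on genes chosen by the ends of the series. Chil3 stayed near its D1 level at D3 and climbed between D3 and D21. Il1b and Serpinb2 fell early, with Il1b at 270.4 and Serpinb2 at 5.52 CPM in D3 library 1, while Igf2bp3 and Mcm5 fell mostly after D7. Not every gene ran between its ends. In library 1 Mki67 read 454 CPM at D1, 788 at D3, 817 at D7 and 208 at D49. Usp18 read 23.8 CPM at D1, 0.465 at D7 and 7.78 at D49.

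**Figure D4:**
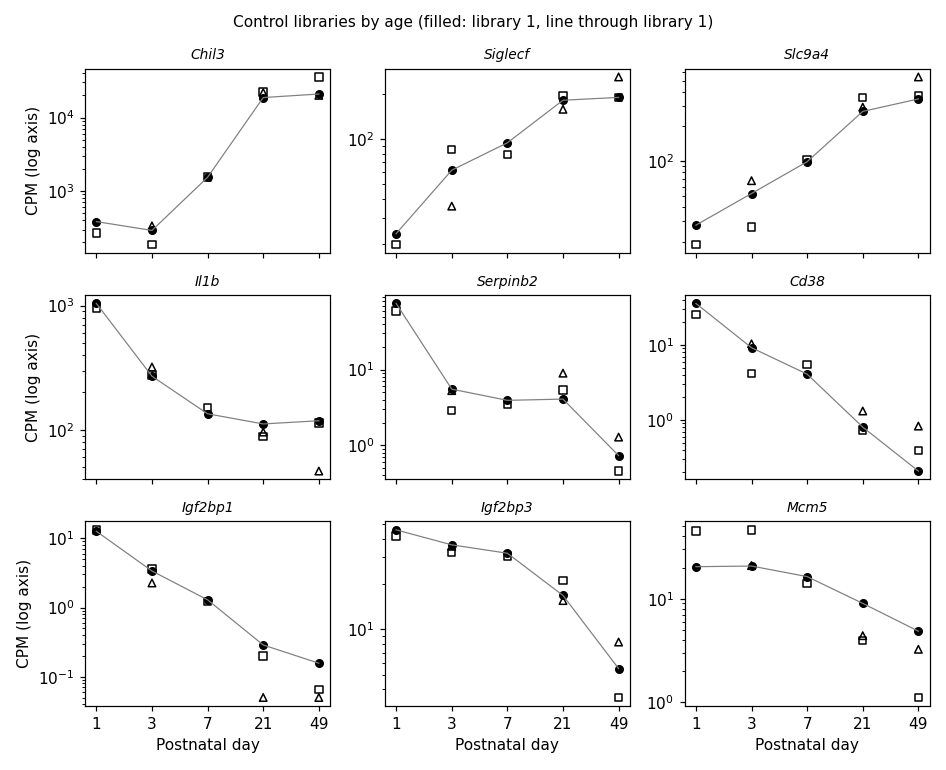
TMM-scaled CPM (log axis) of 9 genes in each of the 13 control libraries against postnatal day, with library 1 filled and joined by a line, the others open, and values of 0 drawn at 0.05. Chil3 climbs between D3 and D21, Serpinb2 drops by D3 to 5.52 CPM in library 1, and Igf2bp3 declines mainly after D7.

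The same age contrast can be read in LPS-treated libraries, 3 of D1 and 2 of D49, which share no library with the controls. Their GC deviation also moved with age, at 0.29, 2.83 and 2.34 at D1 and -0.20 and -1.33 at D49. The fit of 14 libraries again keeps only library 1 of each age. The labels do not say whether these cells came from other mice than the controls. How much of the overlap below follows the GC profile was not tested. There 3620 genes (30.7%) were called in the 24-library fit and 1109 (9.42%) in all 3 fits. Of the 816 genes called in all 3 fits without LPS, 565 were called in all 3 with LPS in the same direction, 308 rises and 257 falls. That is 69.2% of the control list and 50.9% of the LPS list. A further 224 had the same sign. Chil3 read 6.17 ± 0.32 with LPS, Siglecf 2.95 ± 0.27 and Igf2bp3 -2.08 ± 0.30. There were 9 genes called in opposite directions, of which 7 are the salivary or lacrimal gland markers described next, and the others are 2310057J18Rik and Ptgs2. Ptgs2, the inducible prostaglandin synthase, measured 399.7 and 296 CPM at D1 and 105, 102 and 164 CPM at D49 without LPS (log2 fold change -1.50 ± 0.30, adjusted p = 0.0016; -1.98 in the 14 libraries), but with LPS its mean was 1451 CPM at D1 and 3520.4 CPM at D49 (1.28 ± 0.29). Ptgs2 lost its call in the 5 libraries alone (adjusted p = 0.1). The difference between both age contrasts was called in all 3 fits for 14 genes (0.119% of those tested).

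**Figure D5:**
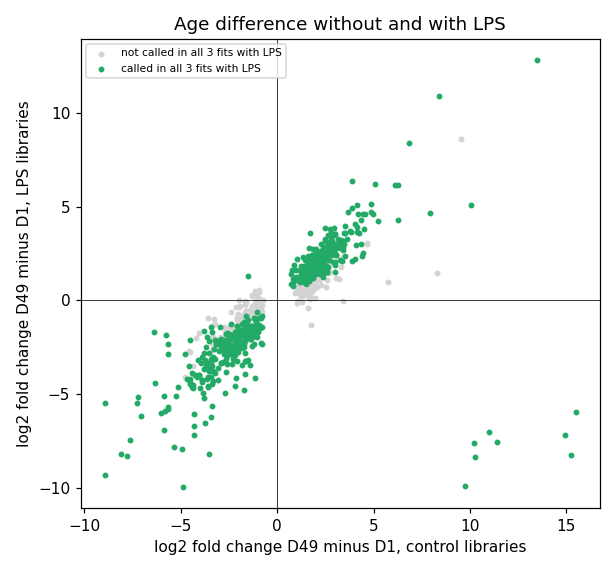
Log2 fold change (D49 minus D1) without LPS (x axis) and with LPS (y axis) of the 816 genes called in all 3 control fits, with those also called in all 3 LPS fits in green. The 565 shared genes lie in the lower left and upper right, and the points at the lower right are mostly gland markers, some of which have no D1 control count and hence a fitted value that is no bound.

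Markers of other cells moved in some lists, and their part in the results was not tested. Gland markers summed to 8.42 and 8.80 CPM at D1 and to 1340, 1333 and 2411 CPM at D49, and 8 of 13 markers had no count at D1 and 4 none at D49. Mucl2, a mucin-like gene and the leading marker, measured 0.235 and 0.465 CPM at D1 and 524, 578 and 1122 CPM at D49 (log2 fold change 11.00 ± 0.57, adjusted p = 7.3e-10; 11.03 in the 14 libraries). Prol1, Scgb2b27 and Pip, secreted gland proteins named after their values were seen, had no count at D1 and were at least 2387-, 2007- and 1610-fold higher at D49 against a floor of 3 counts per D1 library. The sum did not follow age alone: it was under 17 CPM in the D3 and D7 controls and 1530 to 1820.4 CPM in those of D21. With LPS the order was the reverse, with 901 to 1360 CPM at D1, 295 to 550 CPM at D3 and D7, and 7.59 to 11.9 CPM at D21 and D49. 

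Erythroid markers summed to 21.8 and 19.5 CPM at D1 and to 0.26, 2.15 and 0.98 CPM at D49. Hbb-bs, an adult β-globin, measured 16.1 and 10.0 CPM at D1 and 0.0522, 0.783 and 0.528 CPM at D49 (log2 fold change -4.87 ± 0.72, adjusted p = 0.00014; -8.15 in the 14 libraries). The 14-library value of Hbb-bs rests on 1 count in D49 library 1. The airway list summed to 86.5 and 86.6 CPM at D1 against 51.0 to 69.7 CPM at D49, and of 8 tested genes 3 fell, the club cell secretoglobins, and 2 rose (medians -1.09 in the 24 libraries and -1.42 in the 14). Scgb3a2 measured 36.4 and 23.1 CPM at D1 and 1.25, 2.22 and 0.981 CPM at D49 (log2 fold change -4.32 ± 0.59, adjusted p = 5.9e-05; -4.91 in the 14 libraries), and Scgb1a1, named after its values were seen, 6.49 and 15.9 CPM at D1 and 1.46, 0.261 and 0.302 CPM at D49 (log2 fold change -3.99 ± 0.78, adjusted p = 0.0016; -2.20 in the 14 libraries). Scgb3a1, likewise, read -5.88 ± 1.02 (-4.40). The rises, also named after their values were seen, were Bpifa1, a secreted airway protein, at 0.0941 and 0 CPM at D1 and 9.45, 4.24 and 3.55 CPM at D49 (adjusted p = 0.0008; no fold is given with 2 counts at D1), and Epcam at 1.83 and 3.37 CPM at D1 and 17.9, 18.9 and 10.0 CPM at D49 (log2 fold change 2.58 ± 0.41, adjusted p = 0.00027; 3.23 in the 14 libraries). Neutrophil markers summed to 184 and 122 CPM at D1 and 97.1 to 121 at D49, with members moving in both directions. S100a8, a calcium-binding alarmin, measured 151 and 88.7 CPM at D1 and 15.4, 15.2 and 42.7 CPM at D49 (log2 fold change -2.29 ± 0.37, adjusted p = 0.00033; -3.34 in the 14 libraries), S100a9 read -4.23 ± 0.86, with no count in D49 library 1, and Cxcr2, a chemokine receptor, rose, with 4.89 and 2.91 CPM at D1 and 28.9, 33.5 and 25.4 CPM at D49 (log2 fold change 2.91 ± 0.33, adjusted p = 1.1e-05; 2.51 in the 14 libraries). Liver markers summed to 16.1 and 16.6 CPM at D1 and 19.7, 60.8 and 79.1 at D49, higher in D49 libraries 2 and 3 and not called in all 3 fits for any of 12. The alveolar type 2 sum was 31.1 and 96.0 CPM at D1 and 7.76 to 21.6 at D49, and the endothelial sum was 53.0 and 119 against 14.9 to 49.0. Both sums were highest in D1 library 2 and lowest in D49 libraries 2 and 3, as was the GC deviation, and their leading markers Napsa and Vwf read -0.86 and 0.18 in the 14 libraries. Of 3 tested endothelial genes (medians -3.17 in the 24 libraries and -1.63 in the 14) Cdh5, the junction protein VE-cadherin, fell, at 4.09 and 4.15 CPM at D1 and 0, 0.391 and 0.226 CPM at D49 (log2 fold change -4.34 ± 0.79, adjusted p = 0.00085). Of 2 tested alveolar type 1 genes (medians -1.61 in the 24 libraries and -1.68 in the 14) Hopx, a homeodomain cofactor, fell, at 11.2 and 8.72 CPM at D1 and 1.51, 1.04 and 1.21 CPM at D49 (log2 fold change -2.98 ± 0.30, adjusted p = 2.9e-06; -2.94 in the 14 libraries). Both were named after their values were seen, and of 7 tested monocyte genes F13a1, given above, fell. Of the other lists, dendritic markers summed to 19.6 and 37.3 CPM at D1 and 15.0 to 16.8 CPM at D49, monocyte markers to 202 and 269 against 85.2 to 221, alveolar type 1 markers to 262 and 227 against 159 to 242, fibroblast markers to 6.4 and 8.57 against 8.25 to 13.8, and platelet markers to 0.894 and 0.737 against 0.302 to 1.11. Their leading markers Bst2 (-3.28 ± 0.79; -1.55), Treml4, Pdpn and Pf4 were not called in all 3 fits, nor were Alb of liver and Tnnt3 of muscle. The eosinophil sum was almost wholly Siglecf, which alveolar macrophages express. Skeletal muscle markers did not separate the ages, with 4.47 and 28.7 CPM at D1 and 5.12 to 30.3 CPM at D49. Dropping D1 library 1, the log2 fold change of S100a9 moved to -3.22. Lacking D1 library 2, log2 fold changes moved for Scgb1a1 to -3.21 and S100a9 to -4.82. Leaving out D49 library 1 left Scgb3a1 with no count at that age, so no fold is given for that fit. Lacking D49 library 1, log2 fold changes moved for Scgb1a1 to -5.28, S100a9 to -3.58 and Cdh5 to -3.70. With D49 library 2 omitted, log2 fold changes moved for Hbb-bs to -5.59 and Cdh5 to -5.29. Without D49 library 3, the log2 fold change of S100a8 moved to -2.96. Hbb-bs, Scgb1a1, Scgb3a1, S100a8, S100a9, Epcam, Cdh5 and Hopx lost their calls in the 5 libraries alone (adjusted p = 0.053 to 0.11).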

How the data were processed

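The authors deposited whole-number counts per Ensembl gene for 24 libraries. The submitters' processing notes list STAR, DESeq2 and GRCm39. No versions, counting tool or annotation are given in the sources used. The labels name an oligo-dT library kit for samples above a given RNA yield and do not say which those were.

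Of 56691 genes, 52073 received a symbol from GENCODE M21 (GRCm38; no gene coordinates printed). FPKM was computed from the deposited counts and lengths, and the test was run on 11774 genes that reached an FPKM of 1 in 2 libraries. edgeR 4.0.16 (R 4.3.3) fitted quasi-likelihood models with TMM scaling and 10 group means over all 24 libraries, so that spread is shared, with Benjamini-Hochberg adjustment over all tested genes and a threshold of 0.05. CPM uses TMM factors. Standard errors come from the F statistic. GC deviation compares the 10% of genes at each end of GC content, with a prior count of 2. The scripts were tested on simulated counts.

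Members and the 29 pathway and 17 cell type lists were chosen with earlier results of these data known; 7 symbols did not match. Named genes are the 12 largest rises and falls called in all 3 fits (FPKM of at least 5), up to 4 per list, a preset list and leading markers of other cells; others are marked. No pair of replicates agreed within counting noise. Alternatives were scaling, filters, GC corrections, blocks, left-out libraries, voom from limma 3.58.1 and DESeq2 1.42.0.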

Additional observations from a re-analysis of the deposited data

Results flagged for a closer look

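The change with age differed between control and LPS-treated libraries, by the interaction of age and treatment in the 24-library edgeR fit, for 4 of the named genes with counts at both ages. Serpinb2 fell less with LPS: its log2 fold change was -6.36 in controls and -1.67 with LPS, a difference of 4.69 (adjusted p = 3.8e-05). Ptgs2 was -1.50 and 1.28, a difference of 2.77 (adjusted p = 0.0028). Mucl2, a gland marker, was 11.00 and -7.00, a difference of -17.99 (adjusted p = 2.5e-11). These 3 were also called in the other 2 fits. Il1b was -3.42 and -1.41, a difference of 2.02 (adjusted p = 0.028) that was not called in all 3 fits.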

How the results depend on the processing

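Against 5042 calls (2469 higher, 2573 lower), the count was 1226 with GC as covariate (702 and 524), 1482 in the 14 libraries (886 and 596), 3168 with a smooth GC offset (1042 and 2126), 116 from the D1 and D49 control libraries alone, 3315 from the 13 control libraries and 1235 with a replicate block and GC covariate. Without a filter it was 5438 (1872 and 3566), with DESeq2 5831. Leaving out 1 library gave 674 to 6505. The median of all genes was -0.23 under the smooth offset and 0.10 with the block and covariate. The labels do not tie replicate numbers to shared animals. Deviations from the group means had correlations of -0.84 and -0.38 between same-numbered libraries. With 2 D1 libraries these deviations mirror each other, and the libraries also differ in GC deviation, so the correlations cannot decide on pairing. The replicate block alone gave 3712 calls. The genes called in all 3 fits numbered 816, 785 with RLE scaling and 551 of 7099 with an FPKM filter of 5. The LPS count of 3620 became 1788 under the covariate and 1937 for the 14 libraries.

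Over 126 named genes called in all 3 fits, 2129 of 2253 recomputed values kept direction and call and 124 kept direction only, 84 of them in the D1 and D49 control libraries alone. The smooth offset moved 79 of the 126 by over 1.5-fold. Reversed values were Gapdh 1.07, Csf2ra 0.44, Vwf 0.34, Marco 0.33, Treml4 0.29, Rplp0 0.17, Car4 0.017 and Tlr4 -0.22 with the covariate. With block and covariate they were Gapdh 1.03, Csf2ra 0.43, Marco 0.31, Vwf 0.31, Treml4 0.28, Rplp0 0.11 and Tlr4 -0.21. In the 14 libraries they were Gapdh 0.33, Marco 0.21, Vwf 0.18 and Treml4 0.16. The smooth offset turned Csf2ra to 0.48, Fabp4 to -0.25 and Tlr4 to -0.67, which was then called lower (adjusted p = 0.022). With 1 library left out at a time, Tnnt3 ran from -0.58 (without D1 library 1) to 2.76 and was -0.01 without D49 library 3, and Cd74 ran from -1.07 (without D49 library 1) to 2.27. The cause was not tested. Lin28b did not pass the FPKM filter and was not tested.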
